A study of Mus musculus with 53 samples.

Results

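MHC class II genes were followed in whole-tissue RNA-seq of mouse intestine. The set held 7 of the 55421 genes in the count table, taken as the entries whose Ensembl identifiers map to H2-Aa, H2-Ab1, H2-Eb1, H2-DMa, H2-DMb1, Cd74 and Ciita. All 7 had counts in each of the 53 libraries and all 7 passed the filter on low counts in every comparison.

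The libraries came from tamoxifen-treated mice that carried the inducible VilCreER transgene, the WT mice included. The villin promoter drives Cre in the intestinal epithelium, so immune and stromal cells of a mutant kept intact alleles. In the proximal colon, BA mice carried BrafV600E/+ with Alk5fl/fl, and A mice carried Alk5fl/fl alone. Proximal colon was taken at day 30 after induction from WT (n = 4), A (n = 4), A given sulindac, an inhibitor of prostaglandin synthesis, at 0.4 g/L for 14 days (n = 4), BA (n = 5), and BA given ampicillin, neomycin trisulphate and metronidazole at 1 g/L each with vancomycin at 500 mg/L (n = 5). Both treatments were given in the drinking water from the day after tamoxifen. Proximal colon tumours of BA mice (n = 4) were set against WT proximal colon with no day given (n = 3). In the small intestine, Apcfl/fl tissue (n = 10) and WT tissue (n = 6) were taken at day 4, and adenomas of Apcfl/+ mice (n = 5) were set against WT tissue with no day given (n = 3). The Apcfl/+ mice and their WT controls were inbred C57BL6/J, and all other groups were mixed C57BL/6J N6. Ages and sexes of single mice are not given in the sources used here.

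MHC class II molecules hold peptides from the endosome on the cell surface, where CD4 T cells read them. Dendritic cells, B cells and macrophages carry them constantly, and the enterocytes of the small intestine carry them too, under the influence of interferon gamma and the microbiota. The coactivator CIITA switches the whole family on through a factor complex of RFX, CREB and NF-Y that sits on paired X and Y boxes before each gene.

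Promoter boxes are shown for H2-Eb1 and its paralog H2-Eb2, whose windows held both cores, and for H2-Aa, whose window held the Y box core, as most members moved together from library to library. H2-DMb1 and H2-DMb2 held both cores as well, but their RefSeq starts lie inside GENCODE gene bodies and their letters are not printed. Sequences are from RefSeq on GRCm38.p6, 5' to 3' on the strand of the gene, and the capitals mark AACNGATG, an X box core, and GATTGG, a Y box core. Both were searched in the 250 bases before each RefSeq start. The search used both strands for the share of all windows with each core, and the strand of the gene for single genes. Their letters were chosen after the sequences had been seen. The H2-Aa stretch is chr17:34287847-34287932 on the minus strand, the H2-Eb1 stretch is chr17:34305758-34305832 on the plus strand, and the stretch of its paralog H2-Eb2 is chr17:34325525-34325599 on the plus strand.
H2-Aa: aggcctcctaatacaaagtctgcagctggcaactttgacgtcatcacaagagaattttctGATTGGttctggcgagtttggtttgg
H2-Eb1: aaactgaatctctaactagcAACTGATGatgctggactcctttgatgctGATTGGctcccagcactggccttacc
H2-Eb2: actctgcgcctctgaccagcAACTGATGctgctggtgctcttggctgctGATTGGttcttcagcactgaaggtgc

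GATTGG began 49 bases before the H2-Aa start and 60 before the H2-Eb1 start. In H2-Eb1 and H2-Eb2 21 bases lay between the cores, and in H2-DMb1 and H2-DMb2 22 bases did. Of 32851 windows, 1.98% held AACNGATG and 14.6% held GATTGG on either strand. The first was followed by the second on the gene's strand at 15 to 25 bases in 5 (0.0152%). These 5 were H2-DMb1, H2-DMb2, H2-Eb1, H2-Eb2 and BC051142. On the gene's strand, the window of H2-Aa held no AACNGATG, and of the H2-DMa windows 1 held GATTGG and neither held AACNGATG. No window was used here for H2-Ab1, Cd74 or Ciita. A match of letters is a description and not a shown binding site.

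In GRCm38 the 5 H2 genes lie on chromosome 17, with H2-Aa at chr17:34282744-34287823 on the minus strand, H2-Ab1 at chr17:34257689-34269419, H2-Eb1 at chr17:34305867-34316674, H2-DMa at chr17:34119541-34139101 and H2-DMb1 at chr17:34153072-34160230 on the plus strand. Ciita lies at chr16:10480059-10528418 on the plus strand and Cd74 on chromosome 18. Reads were counted over exons. Of the 36-base words of H2-DMb1 transcripts, 28.7% also occurred in another gene, H2-DMb2, so the division of counts between these paralogs is uncertain. For H2-DMa 9.01% of words occurred in Brd2, which overlaps it on the opposite strand, and for Ciita 2.34% did in other genes, mainly Dexi. The other 4 members shared under 1% of their words.

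Libraries held 516985 to 32824795 counts, and 52 of the 53 held at least 10005066. The shallow library was Apcfl/fl replicate 1. Several libraries stood apart. Apcfl/+ tumour 2 had 193 CPM over 6 small intestine genes against 7219 to 12417 in the other 4 adenomas, and the colon gene Car1 at 171 CPM against at most 0.603 CPM, which goes against its small intestine label. BA tumour 2 had 2118 CPM of small intestine genes against 313 to 548 in the other 3 tumours, below every other adenoma. On these genes the libraries depart from their labels in opposite directions. Summed CPM of 6 colon genes, Car1 among them, was 1333 to 1938 in the 5 adenomas and 6632 to 22412 in the 4 BA tumours. On that sum neither library left the range of its label. Whether the libraries were exchanged or taken at another site was not tested. They are called the libraries labelled Apcfl/+ tumour 2 and BA tumour 2. Summed CPM of 10 B cell markers were high in WT small intestine 1 (247 against 18.4 and 19.9), in day 4 WT 4 (362 against 21.1 to 37.8) and in day 4 Apcfl/fl 8 (169 against 5.75 to 31.5). WT proximal colon 1 held 482 CPM of Lars2, a gene chosen after its values were seen, against 41684 and 54360 CPM in the other 2 controls of that group. Values without these libraries are given for counts of members and for several named genes in the tumour and day 4 comparisons.

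**Figure D1:**
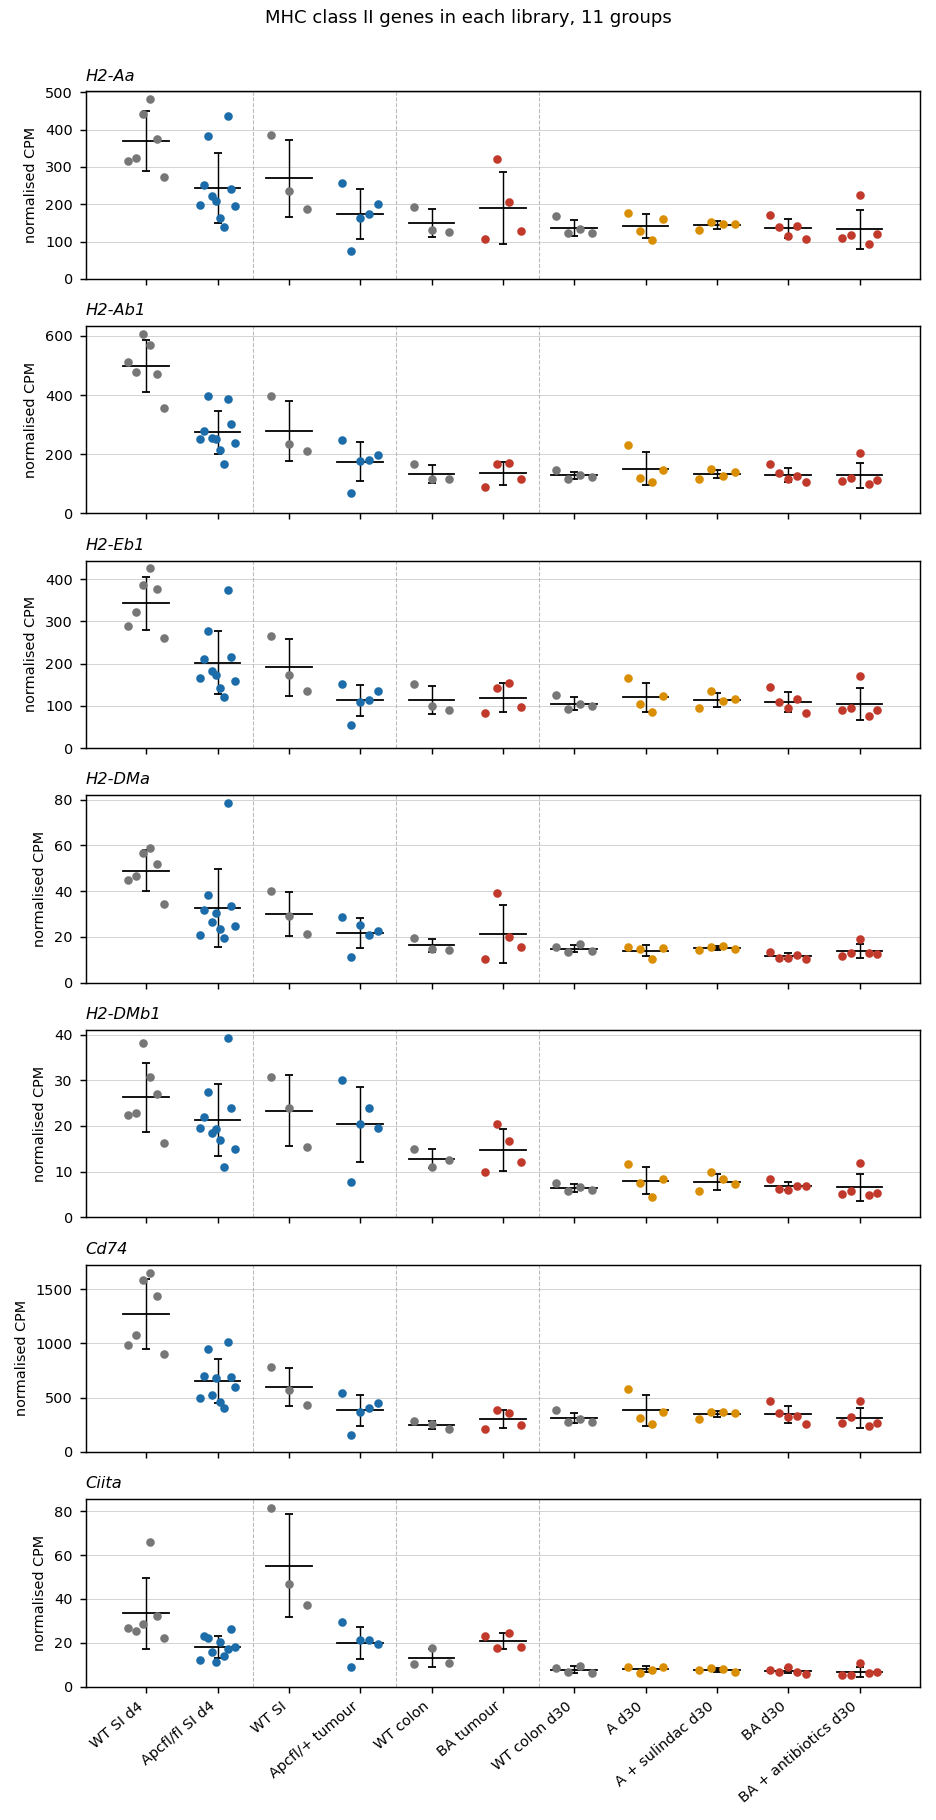
Normalised CPM (CPM, counts scaled by library size and TMM over all 53 libraries) of the 7 class II genes, 1 panel a gene, in the 11 groups on the horizontal axis. Points are libraries, lines are means and bars are SD. All panels but Ciita are highest in day 4 WT small intestine, where Cd74 averaged 1274 CPM, and Ciita is highest in the WT small intestine with no day given, at 55.3 CPM.

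In every panel of the plot of normalised CPM by group, small intestine stood above colon among WT tissues. Mean H2-Ab1 was 499 ± 87.8 CPM (SD, n = 6) in day 4 WT small intestine and 129 ± 12.5 CPM (n = 4) in day 30 WT proximal colon. Cd74, the invariant chain that guards the peptide groove, was 1274 ± 323 CPM and 312 ± 49.3 CPM in the same groups. Ciita was 55.3 ± 23.4 CPM (n = 3) in the WT small intestine with no day given, 33.5 ± 16.2 CPM in day 4 WT small intestine, 13.0 ± 4.13 CPM (n = 3) in WT proximal colon with no day given and 7.74 ± 1.53 CPM in day 30 WT proximal colon. These tissues were not compared by a test, since the groups differ in day and background too.

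When the 11 groups were ordered by mean CPM, neighbouring groups overlapped in all 10 pairs for each member except Ciita. For Ciita 9 of 10 overlapped, and the gap fell between WT proximal colon with no day given (10.4 to 17.8 CPM) and day 30 A colon (6.02 to 9.06 CPM). The day 30 groups filled the 5 lowest ranks for Ciita, between 6.72 and 7.90 CPM on average.

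Per kilobase of exon, Cd74 had the highest level in all 11 groups, from 148 CPM per kb in WT proximal colon to 759 CPM per kb in day 4 WT small intestine. Ciita, a regulator needed in small amounts, had the lowest in all 11, from 0.705 to 5.80 CPM per kb. The log2 ratio of Cd74 to the beta chain H2-Ab1 averaged 1.86 over 53 libraries (SD 0.17, range 1.37 to 2.22). The ratio thus stayed within a span of 1 log2 unit, while the group means of Cd74 ran from 249 to 1274 CPM. H2-Eb1, the beta chain of the I-E molecule, matched H2-Ab1 with a mean log2 ratio of 0.02 (SD 0.18), and the alpha chain H2-Aa lay below it with -0.60 (SD 0.26). H2-Ea-ps, which marks the I-E alpha chain that C57BL/6 mice lack, was at 0 or at most 0.116 CPM everywhere.

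Loss of Apc in the small intestine was examined at day 4. H2-Ab1, H2-Eb1, Cd74 and Ciita fell, 4 of 7 members. Of all 17536 genes tested 54.2% were called and 26.7% were called lower, so the members' count stood above the share of all genes called lower. The median log2 fold change was -0.75 over the 7 members and -0.00 over all genes.

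H2-Ab1 ran from 166 to 395 CPM with a median of 253 in 10 Apcfl/fl libraries and from 355 to 606 CPM with a median of 496 in 6 WT libraries. The ranges overlapped only at their edges, and the log2 fold change was -0.86 (SE 0.19, adjusted p = 0.00132, edgeR). Cd74 ran from 407 to 1011 CPM with a median of 638 in Apcfl/fl and from 906 to 1651 with a median of 1261 in WT, a log2 fold change of -0.97 (SE 0.23, adjusted p = 0.00172). This was the largest fall among the 7 members. In whole tissue, fewer cells of a type and less RNA per cell cannot be told apart, here and in every comparison that follows.

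H2-Eb1 lay between 120 and 374 CPM (median 177) in Apcfl/fl and between 260 and 425 CPM (median 349) in WT, with a log2 fold change of -0.75 (SE 0.24, adjusted p = 0.0125). Ciita lay between 11.3 and 26.1 CPM (median 17.6) in Apcfl/fl and between 22.3 and 65.8 CPM (median 27.7) in WT, with -0.91 (SE 0.23, adjusted p = 0.00356). The high WT value was replicate 4, the library rich in B cell markers, and without it and Apcfl/fl 1 and 8 the Ciita change was -0.53 (adjusted p = 0.0263). No member was free of overlap between the groups, against 15.8% of all genes.

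H2-Aa had a log2 fold change of -0.59 (SE 0.25, adjusted p = 0.0555), and its medians were 215 CPM in Apcfl/fl and 350 CPM in WT. The DM genes encode the editor that loads peptides onto class II molecules. H2-DMa had -0.55 (SE 0.28, adjusted p = 0.102) and H2-DMb1 -0.30 (SE 0.26, adjusted p = 0.347). Apcfl/fl replicate 8 was the highest of its group for H2-DMa, at 78.4 CPM against 19.6 to 38.2. Without that library all 7 members were called lower, with H2-DMa at -0.85 (adjusted p = 0.000161), and without Apcfl/fl 1 and 8 and WT 4 together 6 were called, with H2-Ab1 at -0.88, Cd74 at -0.94 and H2-Eb1 at -0.83.

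Markers of immune cells moved with these members. Ptprc, which encodes CD45 on all leukocytes, lay at 25.5 to 39.9 CPM in Apcfl/fl and at 67.8 to 133 CPM in WT, with a log2 fold change of -1.41 (SE 0.14, adjusted p = 8.9e-07). Of the 10 dendritic cell markers 9 fell, and their summed CPM was 36.1 to 56.1 in Apcfl/fl and 84.3 to 106 in WT. Of 8 T cell markers all fell, Adgre1 of macrophages fell by 0.97 on the log2 scale, and without Apcfl/fl 1 and 8 and WT 4 the change of Ptprc was -1.17. The epithelium moved as well. All 6 small intestine enterocyte genes fell, with a median of -1.52 and sums of 4630 to 9238 CPM in Apcfl/fl against 12555 to 28963 CPM in WT. Of 10 general epithelial genes 1 rose, the keratin Krt18 (1.84), and 2 fell, among them the brush border gene Vil1 (-1.13), while Epcam had -0.17 (adjusted p = 0.218). No gene of these lists was at 0 in all libraries of a group, and their part in the class II result was not tested.

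**Figure D2:**
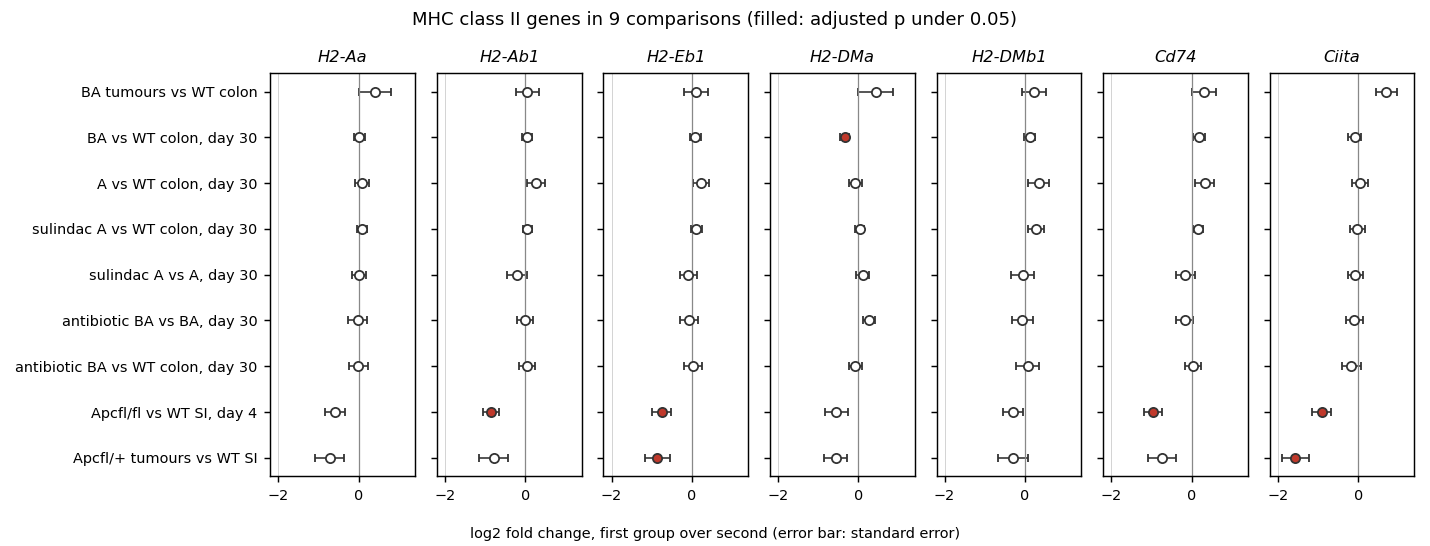
log2 fold changes of the 7 class II genes (vertical axis, edgeR) with their SE as bars in the 9 comparisons. Filled points passed an adjusted p of 0.05. Filled points lie in 3 comparisons, 4 in day 4 Apcfl/fl, 2 in Apcfl/+ tumours and 1 (H2-DMa) in BA at day 30.

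Adenomas of Apcfl/+ mice were compared with WT small intestine of the same inbred background. Ciita and H2-Eb1 fell, 2 of 7 members, in a comparison where 61.5% of all 20567 genes were called and 6189 were called lower. The share of members was thus close to that of all genes called lower. The median log2 fold change was -0.73 over the members and 0.03 over all genes.

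Ciita was 81.7, 46.7 and 37.4 CPM in WT small intestine and 29.5, 9.03, 21.2, 21.1 and 19.6 CPM in the adenomas. Every adenoma lay below every WT library, as for 60.3% of all genes groups did not overlap. The log2 fold change of Ciita was -1.56 (SE 0.35, adjusted p = 0.00436). Without the library labelled Apcfl/+ tumour 2 and WT small intestine 1 it was -1.00 (adjusted p = 0.00148).

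H2-Eb1 was 266, 173 and 135 CPM in WT and 152, 54.9, 110, 113 and 134 CPM in the adenomas. Adenoma 1 lay above the lowest WT library, so the groups overlapped. The log2 fold change was -0.86 (SE 0.31, adjusted p = 0.0366). The call was lost without WT small intestine 1 (-0.55, adjusted p = 0.188) or 2 (adjusted p = 0.0688) and without Apcfl/+ tumour 3 (adjusted p = 0.0626) or 4 (adjusted p = 0.0639). Without the library labelled Apcfl/+ tumour 2 and WT small intestine 1 it was -0.40 (adjusted p = 0.0484).

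The remaining 5 members were not called. Cd74 was 781, 574 and 430 CPM in WT and 538, 154, 372, 409 and 450 CPM in the adenomas, with a log2 fold change of -0.73 (SE 0.35, adjusted p = 0.0988). H2-Ab1 had -0.78 (SE 0.36, adjusted p = 0.0869) and H2-Aa -0.73 (SE 0.36, adjusted p = 0.104). The library labelled Apcfl/+ tumour 2 was the lowest of its group for all 7 members, and WT small intestine 1 was the highest of its group for all 7. Without the former the members called numbered 4, with H2-Ab1 at -0.58 and Cd74 at -0.53. Without both libraries 2 were called, and Cd74 had -0.30, H2-Ab1 -0.26, H2-Aa -0.20, H2-DMa -0.16 and H2-DMb1 0.14. DESeq2 called 5 members and limma voom 2.

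The leukocyte markers again stood lower in this comparison. Ptprc fell by 1.61 on the log2 scale (SE 0.20, adjusted p = 0.00024) and Itgax, a dendritic cell marker, by 1.01. Summed CPM of the 10 dendritic cell markers was 43.8 to 59.9 in adenomas and 95.3 to 102 in WT, and 6 of the 10 fell. Without the library labelled Apcfl/+ tumour 2 and WT small intestine 1, 6 of the 10 fell, Ptprc had -1.38 and Itgax -1.12. Adgre1 had 0.04 (adjusted p = 0.863), and of 6 neutrophil markers 5 rose. Their part in the class II result was not tested.

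BA tumours of the proximal colon were compared with WT proximal colon. None of the 7 members was called by edgeR, DESeq2 or limma voom, in a comparison where edgeR called 13.2% of 19188 genes. At an unadjusted p under 0.05 there was 1 member, Ciita, and 28.2% of all genes.

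Ciita was 23.3, 17.5, 24.5 and 18.0 CPM in the tumours and 10.4, 17.8 and 10.9 CPM in WT. Only WT 2 reached the lowest tumour. The log2 fold change was 0.70 (SE 0.26, adjusted p = 0.114), and without WT 2 it was 0.99 (adjusted p = 0.0465). The library labelled BA tumour 2 was the lowest of the 4 for Ciita, and without it the change was 0.74 (adjusted p = 0.0844).

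The genes that CIITA controls had smaller differences. H2-Aa was 108, 321, 206 and 129 CPM in tumours and 193, 132 and 125 CPM in WT, with a log2 fold change of 0.40 (SE 0.40, adjusted p = 0.566). H2-Ab1 was 88.0, 167, 169 and 118 CPM against 168, 117 and 116 CPM, with 0.05 (SE 0.28, adjusted p = 0.931). H2-Eb1, Cd74, H2-DMa and H2-DMb1 had 0.11, 0.31, 0.42 and 0.23, with adjusted p from 0.537 to 0.851, and the groups overlapped for each of them. WT 1, the control low in Lars2, was the highest WT library for all members but Ciita. Without it the 7 changes ran from 0.22 (H2-Ab1) to 0.59 (H2-Aa), without the library labelled BA tumour 2 from -0.11 (H2-Ab1) to 0.74 (Ciita), and none was called in either fit.

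Leukocyte markers rose in the same tumours. Ptprc had a log2 fold change of 1.19 (SE 0.23, adjusted p = 0.0117) and Itgax 1.94 (adjusted p = 0.00332). Of the B cell markers 9 of 10 rose, of the neutrophil markers 6 of 6, of the dendritic cell markers 2 of 10 and of the T cell markers 1 of 8. Summed leukocyte CPM was 205 to 358 in tumours and 101 to 120 in WT. Without WT 1, 6 of 10 B cell, 3 of 6 neutrophil, 2 of 10 dendritic cell and none of the T cell markers were called, and Ptprc had 1.02 (adjusted p = 0.0676). The part of these cells in the Ciita values was not tested.

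**Figure D3:**
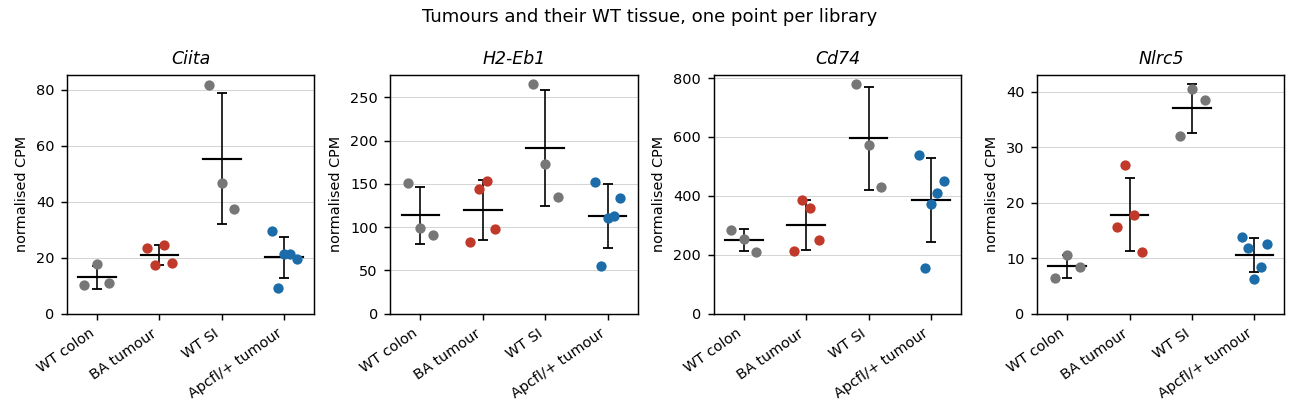
Normalised CPM of Ciita, H2-Eb1, Cd74 and Nlrc5 in WT proximal colon, BA tumours, WT small intestine and Apcfl/+ tumours. Points are libraries, lines means and bars SD. Ciita averaged 20.8 CPM in BA tumours and 20.1 CPM in Apcfl/+ tumours, between WT means of 13.0 CPM in colon and 55.3 CPM in small intestine.

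The 2 tumour effects were then compared with an interaction term. Ciita alone of the 7 was called, with a log2 difference of 2.29 (SE 0.47, adjusted p = 0.00231) for BA tumours against WT colon minus Apcfl/+ tumours against WT small intestine. Of 21668 genes 39.7% were called and 21.9% were called higher, so 1 of 7 is not above the background. The other members had differences of 0.56 to 1.14 with adjusted p from 0.0846 to 0.383. Mean Ciita was 20.8 ± 3.58 CPM in BA tumours and 20.1 ± 7.30 CPM in Apcfl/+ tumours, and it was 13.0 ± 4.13 and 55.3 ± 23.4 CPM in their controls. The ranges of the tumour groups overlapped, and those of their controls did not. Without the libraries labelled BA tumour 2 and Apcfl/+ tumour 2 and WT small intestine 1 the Ciita difference was 1.68 (adjusted p = 0.00199), while H2-DMa and H2-DMb1 had -0.01 and -0.21. Ptprc had a log2 difference of 2.84 (adjusted p = 5.74e-05) in the same test and 2.54 without these libraries. Genotype, tissue and genetic background of the models cannot be told apart here.

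At day 30, BA colon before tumours was compared with WT colon. H2-DMa fell and no other member was called, 1 of 7, in a comparison with 55.1% of 17471 genes called and 29.3% called lower. H2-DMa was 13.6, 10.7, 10.8, 12.0 and 10.4 CPM in BA and 15.6, 13.6, 16.9 and 13.6 CPM in WT. BA 1 was as high as the lowest WT libraries and the other 4 lay below. The log2 fold change was -0.35 (SE 0.11, adjusted p = 0.0199), and the call was lost without WT 3 (-0.29, adjusted p = 0.0604) and in a fit of all 5 day 30 groups (-0.34, adjusted p = 0.0517). Reads of the overlapping Brd2 could enter this count, and their part was not tested.

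The other members were not called. H2-Ab1 was 165, 136, 115, 127 and 107 CPM in BA and 146, 117, 130 and 122 CPM in WT, with a log2 fold change of 0.05 (SE 0.12, adjusted p = 0.764). Cd74 was 472, 360, 320, 329 and 259 CPM in BA and 383, 278, 307 and 279 CPM in WT, with 0.19 (SE 0.16, adjusted p = 0.328). Ciita was 7.70, 6.69, 8.95, 6.69 and 5.93 CPM in BA and 8.53, 6.80, 9.47 and 6.15 CPM in WT, with -0.08 (SE 0.17, adjusted p = 0.692). H2-Aa, H2-Eb1 and H2-DMb1 lay between 0.01 and 0.12. The highest library of each group for Cd74 and H2-Ab1 was replicate 1, which also held most B cell markers of its group (27.6 CPM in BA, 19.5 CPM in WT).

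A colon, which lacks Alk5 alone, was compared with WT at day 30. edgeR, DESeq2 and limma voom called 0 of 7 and none had an unadjusted p under 0.05, where edgeR called 0.141% of 17713 genes and 9.69% had such a p. H2-Ab1 was 230, 121, 105 and 148 CPM in A, and A 1 was above every WT library while A 3 was below every WT library. Cd74 in A 1 was 584 CPM, above the WT range of 278 to 383 CPM. Log2 fold changes ran from -0.08 for H2-DMa to 0.34 (SE 0.27) for H2-DMb1.

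Sulindac-treated A colon was compared with untreated A and with WT. Against A, edgeR called 0 of 7 members and 0% of 17568 genes, and against WT 0 of 7 and 0.0507% of 17742 genes. DESeq2 and limma voom also called 0 of 7 in both, and no member had an unadjusted p under 0.05, where 2.62% of genes did against A and 9.06% against WT. Cd74 was 307, 366, 365 and 356 CPM with sulindac and 584, 316, 258 and 368 CPM without. The sulindac libraries lay inside the range of the untreated ones, and their SD was 27.8 CPM against 142 CPM. Log2 fold changes against A ran from -0.20 (SE 0.24, H2-Ab1) to 0.11 (H2-DMa), and against WT from -0.02 (Ciita) to 0.27 (H2-DMb1). Both comparisons share libraries with others of day 30, the WT and A groups.

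Antibiotics were tested in BA mice at day 30, against untreated BA. No member was called by edgeR, DESeq2 or limma voom and none had an unadjusted p under 0.05, where edgeR called 13% of 16680 genes and 30.8% had such a p. H2-Aa was 110, 117, 224, 93.7 and 119 CPM with antibiotics and 172, 140, 116, 141 and 108 CPM without, a log2 fold change of -0.03 (SE 0.23, adjusted p = 0.943). Ciita was 5.19, 5.22, 10.6, 6.08 and 6.49 CPM with antibiotics and 7.70, 6.69, 8.95, 6.69 and 5.93 CPM without, a log2 fold change of -0.10 (SE 0.22). Replicate 3 of the treated mice was the highest of all 10 libraries for 6 members and the second highest for Cd74, at 466 CPM against 472 CPM in BA 1.

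The 4 other treated mice lay at the low end of the untreated range or below it for most members. Without treated 3 and BA 1 the log2 fold changes were -0.21 for H2-Aa, -0.15 for H2-Ab1, -0.24 for Cd74, -0.33 for H2-DMb1 and -0.31 for Ciita, and 0.17 for H2-DMa, with adjusted p from 0.106 to 0.286, none of them called. In that fit, 3 of 5 leukocyte, 5 of 10 macrophage and 2 of 2 neutrophil markers were called lower, where 11.6% of all genes were called. Among them Ptprc stood at -0.63 (edgeR, adjusted p = 0.0157) and Adgre1 at -0.80 (adjusted p = 0.00314). None of the 8 dendritic cell, 8 T cell and 3 B cell markers tested was called. What these cells add to the class II values was not tested. Treated 3 held 154 CPM of leukocyte markers against 57.1 to 65.2 CPM in the other 4, and 477 CPM of macrophage markers against 179 to 219 CPM. Its fibroblast and endothelial markers summed to 6105 CPM against 908 to 1273 CPM. Their part in its class II levels was not tested. Against WT, with 39.6% of 17569 genes called, none of the members of treated BA colon was called by any of the 3 tools, none had an unadjusted p under 0.05 where 48.6% of genes did, and log2 fold changes ran from -0.17 (Ciita) to 0.06 (H2-DMb1).

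**Figure D4:**
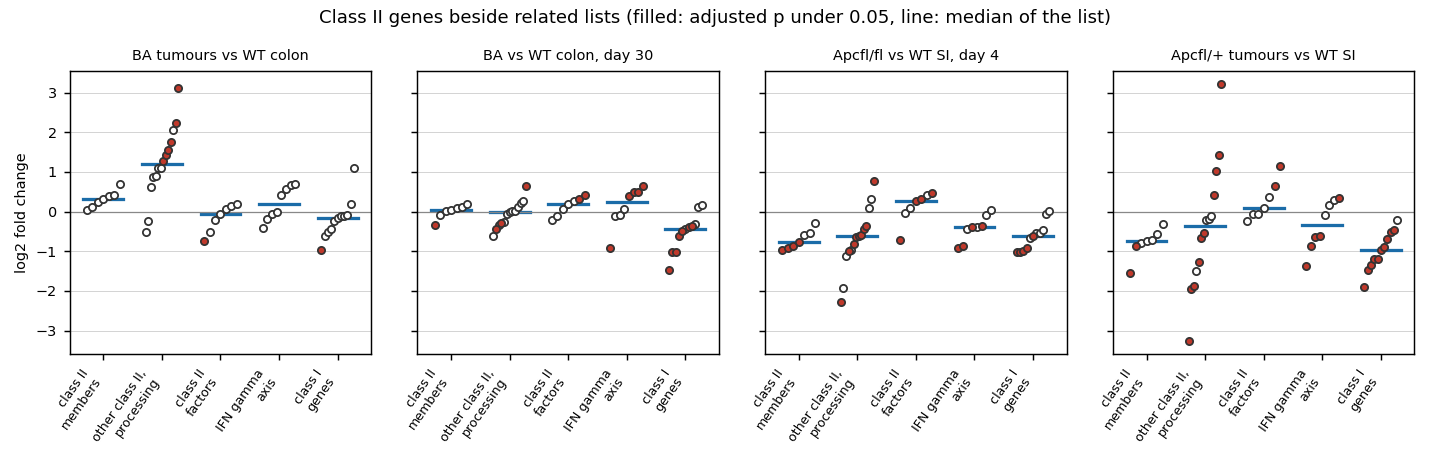
log2 fold changes (vertical axis) of class II members, other class II and antigen processing genes, class II transcription factors, the interferon gamma axis and MHC class I genes in 4 comparisons. Points are genes and lines are list medians. The class I list lies lowest in Apcfl/+ tumours, with a median of -0.97, and its median is -0.45 in BA at day 30, where the class II members have 0.05.

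The wider class II pathway was followed in 16 further genes, of which 13 or 14 were tested. In BA tumours 6 of 14 rose and none fell, with a median of 1.19 against 0.03 over all genes, of which 13.2% were called. These were H2-Ob (1.76, adjusted p = 0.0256) and H2-DMb2 (1.54), which encode chains of the DO and DM editors, the beta chain paralog H2-Eb2 (3.12), the asparaginyl protease Lgmn (1.28), the ubiquitin ligase March1 (1.43), which removes class II molecules from the surface, and the costimulator Cd80 (2.24). In BA tumours H2-Ob averaged 7.59 CPM against 2.28 CPM in WT. DO restrains DM, mainly in B cells. The same number rose without the library labelled BA tumour 2, while without WT 1 none was called, with a median of 1.30, where 3.49% of all genes were called.

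In Apcfl/+ tumours 6 of 14 fell and 4 rose, with a median of -0.38, where 61.5% of all genes were called. Those that rose were proteases, Ctsl (3.23), Ctsh (1.44), Lgmn (1.03) and Ctsb (0.41). Those that fell were H2-Ob (-3.27), H2-Eb2 (-1.95), H2-DMb2 (-1.87), March1 (-1.26), Cd80 (-0.66) and Ifi30 (-0.54). H2-Ob was at 38.3 CPM in WT small intestine 1 and between 1.61 and 2.13 CPM in the other 2 controls, where the adenomas had 1.25 to 2.14 CPM. WT 1 is the control rich in B cell markers. Without it and the library labelled Apcfl/+ tumour 2, March1 (-1.07) and Ifi30 (-0.29) fell, the same proteases rose, and H2-Ob (-0.54, adjusted p = 0.061), Cd80 (-0.66), H2-DMb2 (-0.21) and H2-Eb2 (-0.19) were not called. In Apcfl/fl at day 4, with 54.2% of all genes called, 8 of 14 fell, among them H2-Eb2 (-2.27), March1 (-0.99), Cd86 (-0.65), Ctss (-0.60), the protease that trims CD74, and Ifi30 (-0.59), and Lgmn rose (0.78). Without Apcfl/fl 1 and 8 and WT 4, 11 of 14 fell.

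In BA colon at day 30, Ctsh rose (0.64) and Ctss (-0.44) and March8 (-0.30) fell, 3 of 13 or fewer than the 55.1% of all genes called. With antibiotics Ctss fell further against untreated BA (-0.72, SE 0.13, adjusted p = 0.00574), the 1 gene of 13 called, where 13% of all genes were. Without antibiotic-treated BA 3 and BA 1, Ctsl (-0.81), Ctss (-0.80), Lgmn (-0.76) and Ctsb (-0.44) were called lower, and no other gene of this list was called. In A colon and with sulindac none of these genes was called.

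Of the 7 class II transcription factors, Rfx5, the DNA-binding part of RFX, was not called in BA tumours (0.06), BA at day 30 (-0.20, adjusted p = 0.0711), Apcfl/fl (0.10) or Apcfl/+ tumours (0.37, adjusted p = 0.0526). Rfxank fell in BA tumours (-0.74) and in Apcfl/fl (-0.71), where Nfyb (0.47), Creb1 (0.33) and Nfya (0.27) rose. Rfxap (1.15) and Nfyb (0.65) rose in Apcfl/+ tumours, and Creb1 (0.43) and Nfyb (0.32) in BA at day 30. With antibiotics Creb1 fell against untreated BA (-0.23, adjusted p = 0.0482), where Rfx5 had -0.30 (adjusted p = 0.152). Against WT, antibiotic-treated BA colon had Rfx5 lower (-0.49, adjusted p = 0.0214) and Nfyb higher (0.46). In Apcfl/+ tumours without the library labelled Apcfl/+ tumour 2 and WT small intestine 1, Rfx5 rose (0.33, adjusted p = 0.0345).

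Interferon gamma is the classical inducer of Ciita. Ifng itself was at most 0.319 CPM in every library and was not tested. Of the other 8 genes of the axis none was called in BA tumours by edgeR. In Apcfl/fl 4 fell, Jak2 (-0.92), Irf1 (-0.88), Ifngr1 (-0.40) and Irf8 (-0.37). In Apcfl/+ tumours Jak2 (-0.87), Irf8 (-0.64) and Irf1 (-0.60) were among those that fell, and Ifngr1 rose (0.34). All 4 were called in the same direction without the library labelled Apcfl/+ tumour 2 and WT small intestine 1.

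In BA colon at day 30, Irf8, a factor of dendritic cells and macrophages and an interferon target, fell from 99.95 ± 7.62 to 51.6 ± 3.31 CPM (log2 fold change -0.93, adjusted p = 2e-06), while Ifngr1 (0.63), Socs1 (0.50), Jak2 (0.49) and Jak1 (0.40) rose. With antibiotics Irf1 (-0.47), Ifngr2 (-0.26) and Ifngr1 (-0.24) fell against untreated BA. Without antibiotic-treated BA 3 and BA 1, Irf1 (-0.50) and Ifngr1 (-0.23) were called lower and Ifngr2 was not called (-0.26, adjusted p = 0.0608).

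MHC class I genes, which show peptides from the cytosol to CD8 T cells and share the interferon response, were set beside the class II members. In BA colon 7 of 11 fell and none rose, with a median of -0.45 against 0.05 for the members. Of all genes 55.1% were called and 29.3% were called lower. B2m, the light chain of class I, was 213 ± 21.7 CPM in BA and 596 ± 15.6 CPM in WT (log2 fold change -1.46, SE 0.08, adjusted p = 1.36e-07), and the immunoproteasome subunits Psmb9 and Psmb8 fell by 1.02 and 1.01. Other tissue markers moved in the same comparison. Of 10 epithelial genes 8 rose, with sums of 20882 to 25003 CPM in BA against 11042 to 13069 CPM in WT, while 4 of 8 T cell, 4 of 6 smooth muscle and 5 of 7 fibroblast and endothelial genes fell. Summed CPM of dendritic cell markers was 23.8 to 26.8 in BA and 20.1 to 30.9 in WT. Sums of macrophage markers were 229 to 337 and 258 to 334, and of B cell markers 4.52 to 27.6 and 6.23 to 19.5. Neutrophil markers summed to 323 to 515 in BA and 2.30 to 4.11 in WT. Without BA 1 and WT 1, Itgax rose (0.82, adjusted p = 0.00218) and Adgre1 was not called (0.13, adjusted p = 0.461). The part of all these cells in the class I and class II values was not tested. In antibiotic-treated BA colon 8 of 11 fell against WT, B2m among them, where 39.6% of all genes were called in either direction. The difference between the class I and class II lists was not tested.

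In Apcfl/+ tumours 10 of 11 class I genes fell, with a median of -0.97, and 10 of 11 fell without the library labelled Apcfl/+ tumour 2 and WT small intestine 1. With all libraries 61.5% of 20567 genes were called and 6189 were called lower. Nlrc5, which does for class I what CIITA does for class II, was 37.0 ± 4.37 CPM in WT small intestine and 10.6 ± 3.13 CPM in adenomas (log2 fold change -1.91, SE 0.24, adjusted p = 0.000255, and -2.06 without those libraries). In BA tumours Nlrc5 was 17.8 ± 6.59 CPM against 8.49 ± 2.04 CPM in WT (1.10, adjusted p = 0.0694, and 0.79 without the library labelled BA tumour 2), all tumours lay above all WT libraries as groups did not overlap for 26.9% of genes, and Psmb10 was the 1 class I gene called, lower by 0.96. It was not called without WT 1 (-0.87, adjusted p = 0.181). The interaction of the tumour effects for Nlrc5 was 3.03 (SE 0.43, adjusted p = 0.000267), beside 2.29 for Ciita, and 2.80 against 1.68 without the 3 libraries named above. In Apcfl/fl at day 4, where 26.7% of all genes were called lower, 5 of 11 fell (8 without Apcfl/fl 1 and 8 and WT 4). Nlrc5 had 0.02 there (adjusted p = 0.975) with libraries from 5.73 to 48.0 CPM.

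**Figure D5:**
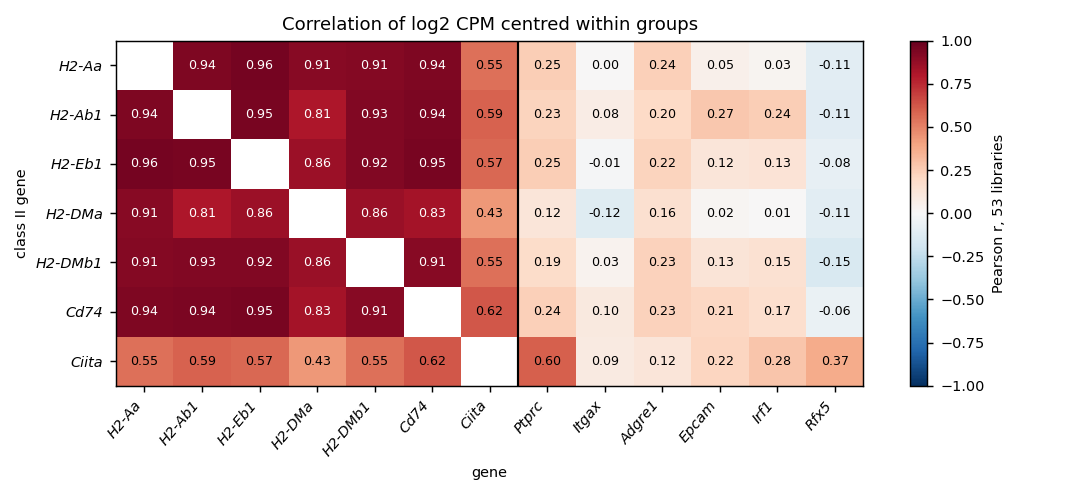
Pearson r between genes over 53 libraries, on log2 CPM centred within each of the 11 groups, shown as colour. The block of the 6 members without Ciita has r from 0.81 to 0.96, and the r of Ciita with them is 0.43 to 0.62.

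Within groups the structural genes rose and fell as a block from library to library. On log2(CPM + 0.5) centred within groups, the 15 pairs of members without Ciita had Pearson r from 0.81 to 0.96 over 53 libraries, with a median of 0.92. Ciita had r from 0.43 to 0.62 with them, median 0.56. Points share their library, its depth and its tissue make-up, so these values are a description.

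Single marker genes were less like the members. Over the 7 members r was 0.12 to 0.60 with Ptprc, 0.12 to 0.24 with Adgre1, 0.02 to 0.27 with Epcam and -0.12 to 0.10 with Itgax. The value of 0.60 was that of Ciita with Ptprc. Rfx5 had -0.15 to 0.37, the highest with Ciita.

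Among 16608 genes with a mean of at least 1 CPM, those most like the mean of the members without Ciita were C1qtnf12 (r = 0.71), Rac2 (0.71), Immp2l (0.69), Cd3g (0.69), Tmed3 (0.67), Marc2 (0.67), Coro1a (0.67), Cd302 (0.66), Gpx4 (0.66) and Tff3 (0.66). Rac2 and Coro1a are leukocyte genes and Cd3g belongs to the T cell receptor complex, whereas Tff3 is secreted by goblet cells. All of these genes lay below the r of 0.81 to 0.96 between pairs of members without Ciita. They lay above the r of 0.43 to 0.62 of Ciita with each other member. The pair values are between single genes and those of the named genes are with a mean, so they are not directly comparable.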

How the data were processed

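The authors deposited raw read counts per Ensembl gene for 53 libraries in 1 table, without normalisation. Per the labels and the study's methods, paired reads of 36 bases (NextSeq 500, TruSeq) were checked with FastQC 0.11.8, trimmed with Trim Galore 0.6.4, aligned to GRCm38 with HISAT2 2.1.0 and counted with featureCounts 1.6.4. The strand setting and the treatment of multi-mapping reads are not given in the sources used here. Symbols came from GENCODE M21 for 55154 of 55421 genes.

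Each comparison was fitted across all genes with edgeR 4.0.16 (R 4.3.3): filterByExpr, TMM, quasi-likelihood test, two-sided, Benjamini-Hochberg over all genes tested, called at an adjusted p under 0.05. The scripts were tested on simulated data. Normalised CPM use TMM factors over all 53 libraries. Alternatives were RLE scaling, no filter, DESeq2 1.42.0, limma voom 3.58.1, a replicate block, all day 30 groups in 1 fit, and each library left out. Tables were made with Python 3.11.15 and pandas 2.3.3.

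The members and gene lists were chosen with earlier results of these data known. Named were all members, from each further list its counts and its extremes, every gene of the class II, transcription factor and interferon lists that bears on a result, the first marker of a list, and the 10 genes most like the members. B2m, Psmb8 and Psmb9 and the library marker Car1 were named after their values were seen. Some genes are not reported here. Replicate numbers are the labels' own. Same-numbered libraries correlated at -0.46 to 0.26 and no comparison had every pair above 0.1, so numbers were not taken to pair mice. With so few libraries this cannot exclude pairing. In Apcfl/+ tumours 2 of 3 pairs correlated best with their own number. Separate libraries are taken as separate mice as labelled, and p-values measure the spread between these libraries only. A count of 3 corresponds to 0.0914 CPM or more in the libraries, for counting error only.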

Additional observations from a re-analysis of the deposited data

Results flagged for a closer look

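Each of the 7 genes was searched in the 9 groups of 4 to 10 libraries for a library far from the rest (Dixon's 95% limit). Of 63 gene and group pairs 10 held one, where chance gives about 1 in 20 for independent pairs. The pairs are not independent, as most members moved together from library to library. Antibiotic-treated BA replicate 3 accounted for 6 of the 10. It had 224 CPM of H2-Aa (others 93.7 to 119), 203 of H2-Ab1 (101 to 119), 172 of H2-Eb1 (75.1 to 95.4), 19.1 of H2-DMa (11.8 to 13.1), 11.9 of H2-DMb1 (4.92 to 5.69) and 10.6 of Ciita (5.19 to 6.49). The same library had 50.1 CPM of dendritic cell markers (others 23.0 to 28.2) and 13.0 CPM of B cell markers (2.97 to 4.78). Its fibroblast and endothelial markers stood at 6105 CPM (908 to 1273), and the part of these cells was not tested.

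Apcfl/fl replicate 8 had 78.4 CPM of H2-DMa (others 19.6 to 38.2). It also held 24160 CPM of Lars2, a gene chosen after its values were seen, against 116 to 816 CPM in the other 15 day 4 libraries. Values of that size were usual in the tumours and controls with no day given, such as 17914 to 54050 CPM in BA tumours. A replicate 3 had 10.3 CPM of H2-DMa (others 14.7 to 15.4), sulindac-treated A replicate 1 had 307 CPM of Cd74 (356 to 366), and day 4 WT small intestine replicate 4 had 65.8 CPM of Ciita (22.3 to 32.2).

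The tumour effects on Ciita differed between the models by 2.29 on the log2 scale in a test of the difference itself (edgeR, SE 0.47, adjusted p = 0.00231). The control tissues differ in region and genetic background too, and these cannot be told apart.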

How the results depend on the processing

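Of 70 pairs of member and comparison, 35 turned sign under at least 1 setting; none of these was called in the reported fits, no turned value was called, and the largest turned size was 0.28 on the log2 scale. The 4 members called in Apcfl/fl and Ciita in Apcfl/+ tumours and in the interaction were called with the same sign in all settings run. The sets of libraries left out together were chosen after seeing the data. Library depth limits Apcfl/fl replicate 1 (516985 counts). For the changed counts and signs below, the cause was not tested.

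The count of members called was 0 to 1 in BA tumours, 0 to 1 in BA at day 30, 4 to 7 in Apcfl/fl and 1 to 4 in Apcfl/+ tumours when single libraries were left out (1 without WT small intestine 1 or 2 or Apcfl/+ tumour 3 or 4). It was 0 in BA at day 30 in the fit of all 5 day 30 groups and 5 in Apcfl/+ tumours with DESeq2. Single libraries left out moved log2 fold changes across 0 as follows. In BA tumours H2-Aa was -0.030 to 0.60, H2-Ab1 -0.11 to 0.22, H2-Eb1 -0.037 to 0.34, H2-DMa -0.11 to 0.66 and H2-DMb1 -0.0080 to 0.40, each lowest without tumour 2. In BA at day 30 H2-Aa was -0.093 to 0.11, H2-Ab1 -0.060 to 0.11, H2-Eb1 -0.036 to 0.18 and Ciita -0.18 to 0.026. In A, H2-Aa was -0.058 to 0.20, H2-Ab1 -0.040 to 0.40, H2-DMa -0.15 to 0.040 and Ciita -0.041 to 0.17. In sulindac-treated A against WT, H2-Ab1 was -0.0084 to 0.11, H2-DMa -0.014 to 0.090 and Ciita -0.11 to 0.094. Against A, H2-Aa was -0.12 to 0.14, H2-Ab1 -0.35 to 0.094, H2-Eb1 -0.23 to 0.12, H2-DMa -0.0071 to 0.18, H2-DMb1 -0.26 to 0.20, Cd74 -0.30 to 0.15 and Ciita -0.19 to 0.021. In antibiotic-treated BA against BA, H2-Aa was -0.32 to 0.079, H2-Ab1 -0.26 to 0.084, H2-Eb1 -0.33 to 0.052 and H2-DMb1 -0.41 to 0.031. Against WT, H2-Aa was -0.30 to 0.096, H2-Ab1 -0.20 to 0.096, H2-Eb1 -0.24 to 0.12, H2-DMb1 -0.28 to 0.14 and Cd74 -0.18 to 0.13.

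Other settings turned values near 0. In sulindac-treated A against A, H2-Aa was 0.00065 with RLE, 0.00069 with DESeq2 and 0.025 with voom, and H2-DMb1 was 0.015 with voom. In antibiotic-treated BA against WT, H2-Ab1, H2-Eb1 and Cd74 were -0.0016, -0.010 and -0.012 with no filter and -0.013, -0.029 and -0.011 with voom, where H2-DMb1 was -0.018. Without Apcfl/+ tumour 2 and WT small intestine 1, H2-DMb1 was 0.14, and in the interaction without BA tumour 2 as well, H2-DMa and H2-DMb1 were -0.013 and -0.21.

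Replicate numbers are shared but were not taken to pair mice. With the replicate block 6 members were called in Apcfl/fl (4 without it), 2 in Apcfl/+ tumours, 0 in BA tumours and 1 in the interaction. In BA at day 30 it called 1, Cd74 (0.28, adjusted p = 0.0219) in place of H2-DMa (-0.31, adjusted p = 0.0636). H2-Aa and H2-DMb1 were 0.027 and 0.0033 with the block in sulindac-treated A against A, and H2-Eb1 was -0.0019 in antibiotic-treated BA against WT. In no comparison did every library correlate best with its own number.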
